A study of Mus musculus with 2 samples.

Results

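Small nucleolar RNA genes were examined in the liver of male E4bp4-LKO mice and of male wild-type (WT) mice. The members are the genes whose symbol starts with Snora, Snord or Scarna followed by a number and that have a probe set naming no other gene. There are 78 such genes among the 22180 genes of the array: 26 of the box H/ACA class (Snora), 47 of the box C/D class (Snord) and 5 Cajal body RNAs (Scarna). The E4bp4-LKO group is described by the submitters as E4bp4-deficient. The WT group carries no stated allele. In both groups the mice were 2 months old when a high-fat diet began, and they ate it for 12 weeks. They were kept at 25 °C on a cycle of 12 h light and 12 h dark. Each group is 1 Affymetrix array hybridised with liver RNA pooled from several mice. The labels state neither how many mice went into a pool, nor the hour at which livers were taken, nor the construct behind the deletion.

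Small nucleolar RNAs guide chemical changes of other RNAs in the nucleolus. Box C/D RNAs pair with ribosomal RNA and direct the methyltransferase fibrillarin (Fbl) to ribose groups, while box H/ACA RNAs direct the pseudouridine synthase dyskerin (Dkc1). A few members of both classes serve the cleavage of the ribosomal RNA precursor instead, and Cajal body RNAs guide changes of the spliceosomal RNAs. In mammals most of these RNAs are cut out of introns of a host gene after splicing, and many hosts encode ribosomal proteins, nucleolar proteins or no protein at all.

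Most small nucleolar RNA genes had a higher value on the E4bp4-LKO array than on the WT array. Among the 78, 60 had a positive difference and 18 a negative one, against 47.6% positive among all genes. Their median level was 5.87 on the E4bp4-LKO array and 5.59 on the WT array, in log2 intensity. The median difference, always E4bp4-LKO minus WT on the log2 scale, was 0.25 (1.19-fold), against -0.01 over all genes. At least 1.5-fold higher were 16 of the 78 (20.5%), against 1.33% of all genes. At least 1.5-fold lower were 2, against 1.65% of all genes. At 2-fold, 7 members were higher and none lower, against 0.243% and 0.257% of all genes. Each genotype has a single array and so no replicate error, and none of these differences can be tested against the variation between mice. The values describe these 2 arrays only.

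**Figure D1:**
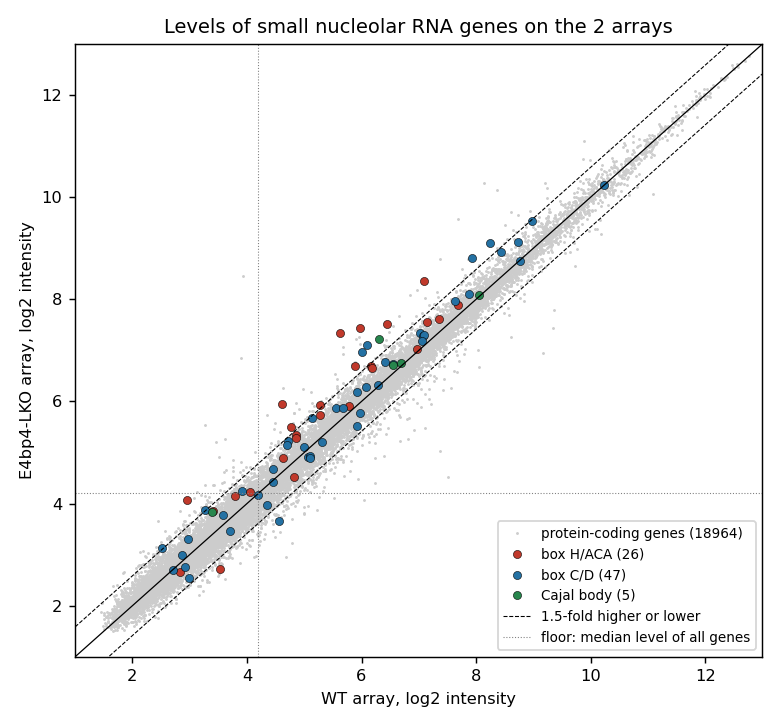
Each point is a gene, with the log2 intensity of the E4bp4-LKO array on the y axis and of the WT array on the x axis. Small grey points are protein-coding genes, and larger points are small nucleolar RNA genes coloured by class. Of the 78, 60 lie above the line of equality and 16 lie on or above the upper dashed line of 1.5-fold.

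Over all probe sets the median was 3.75 on the E4bp4-LKO array and 3.74 on the WT array, which the quantile step of the authors' RMA normalization makes alike by construction. The targeted gene Nfil3, which encodes E4BP4, had 4.47 on the E4bp4-LKO array and 5.94 on the WT array. The 6 hepatocyte markers differed by little, with a summed linear intensity of 23546 on the E4bp4-LKO array and 23250 on the WT array. Markers of other cells also differed between the arrays: all 4 skeletal muscle genes (summed linear intensity 232 against 459 in WT), all 3 proliferation genes (81.9 against 139) and all 3 stellate cell genes (353 against 554) were lower on the E4bp4-LKO array, and all 3 T and NK cell genes were higher (125 against 96.1). Macrophage genes (2 of 4 higher, 891 against 933), endothelial genes (none of 3 higher, 725 against 847) and B cell genes (1 of 2 higher, 33.4 against 35.4) differed less in the ratio of the sums. Their part in the values of the small nucleolar RNA genes was not tested. In pooled tissue, a different mix of cells and a different amount of RNA per cell cannot be told apart.

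Box H/ACA genes lay further above 0 than box C/D genes. The 26 box H/ACA genes had a median level of 5.92 on the E4bp4-LKO array and 5.27 on the WT array. Their median difference was 0.45 (1.37-fold), and 23 of the 26 were positive. At least 1.5-fold higher were 9 of them (34.6%), against 1.33% of all genes. The 47 box C/D genes had a median level of 5.67 on the E4bp4-LKO array and 5.56 on the WT array. Their median difference was 0.20 (1.15-fold), with 32 positive, and 6 (12.8%) were at least 1.5-fold higher. Box C/D minus box H/ACA was -0.25 for the medians. The 5 Cajal body genes were all positive, with a median of 0.17.

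**Figure D2:**
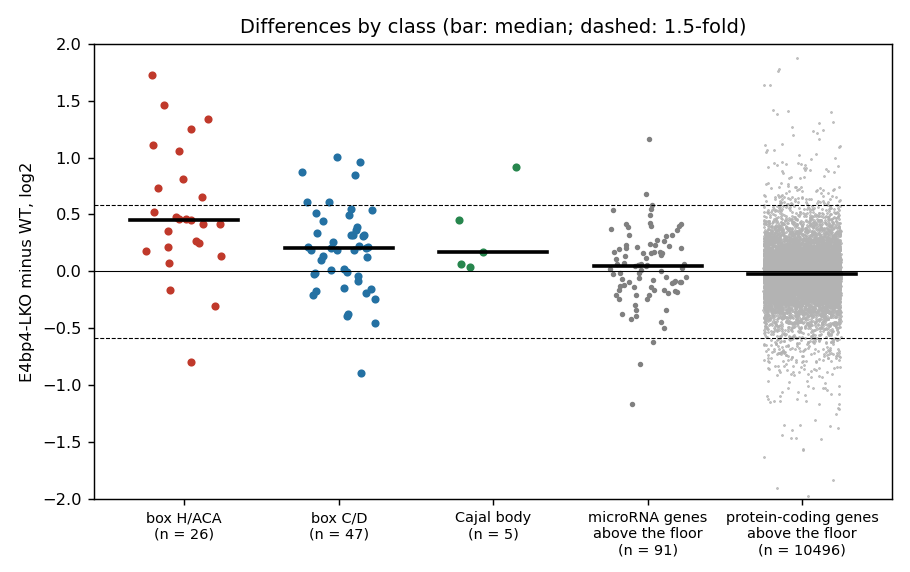
The y axis is the log2 difference, E4bp4-LKO minus WT, and each point is a gene. Columns hold the 26 box H/ACA, 47 box C/D and 5 Cajal body genes, then the microRNA and protein-coding genes above the floor. Black bars mark medians (0.45, 0.20, 0.17, 0.05 and -0.03), dashed lines mark 1.5-fold, and 7 protein-coding genes lie beyond the axis.

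The differences of the small nucleolar RNA genes were also more widely spread than those of protein-coding genes. Their standard deviation between genes was 0.47. Protein-coding genes in the same bins of mean level, weighted by the number of members in each bin, had a standard deviation of 0.26 and a median of -0.03. The ratio of the spreads was 1.82 for all members, 2.21 for box H/ACA genes (0.57 against 0.26) and 1.45 for box C/D genes (0.38 against 0.26). Genes were matched by mean level only. The number of probes behind a value was not matched, and its part in the spread was not tested. Of the protein-coding genes of like level, 1.22% reached 1.5-fold above WT and 2.08% reached 1.5-fold below it. MicroRNA genes had a ratio of 1.16 and a median of 0.01 over 472 genes, of which 381 lay below the floor. Above the floor, the median mean level of all genes (4.20), 91 microRNA genes had a median of 0.05.

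The floor was passed by 58 of the 78 members, and the members below it were more mixed in sign. Above the floor, where 1.51% of all genes reached 1.5-fold above WT and 2.06% reached 1.5-fold below it, 13 of the 58 members did the first and none the second. The median of these 58 was 0.29, against -0.02 over all genes above the floor. Of the 20 members below it, 11 were positive and 9 negative, with a median of 0.15. Ordered by mean level, 25 of the upper 26 members were positive, against 20 of the middle 26 and 15 of the lower 26. Across members the difference correlated with mean level at r = 0.37 (rho = 0.36) for the 47 box C/D genes and at r = 0.39 (rho = 0.30) for the 26 box H/ACA genes. These are descriptions across genes that share the same 2 arrays.

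Among box H/ACA genes Snora73b stood furthest from WT, at 7.35 on the E4bp4-LKO array and 5.62 on the WT array (1.73, 3.32-fold). Its sister gene Snora73a had 5.95 on the E4bp4-LKO array and 4.61 on the WT array (1.34). Both encode U17 RNA, which serves the processing of the small ribosomal subunit RNA rather than guiding pseudouridylation, and which has been tied to cholesterol traffic in cultured hamster cells. The 2 genes are close copies, so probes may read both and their values are uncertain one by one. Snora31 followed Snora73b, at 7.43 on the E4bp4-LKO array and 5.97 on the WT array (1.47). In people, variants of its counterpart SNORA31 have been linked to herpes simplex encephalitis.

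Snora16a, a pseudouridylation guide of the Snhg12 locus, had 8.35 on the E4bp4-LKO array and 7.10 on the WT array (2.38-fold). Snora34 had 7.51 on the E4bp4-LKO array and 6.45 on the WT array (1.06). Snora69 had 4.07 on the E4bp4-LKO array and 2.96 on the WT array (1.11), and both values lie below the floor, so the size of that difference is uncertain. These 3, with the Snora73 pair and Snora31, were the box H/ACA genes past 2-fold. Between 1.5-fold and 2-fold were Snora30 (6.69 on the E4bp4-LKO array, 5.88 on the WT array), Snora7a (5.51 against 4.77 in WT) and Snora15 (5.93 against 5.27 in WT). The only box H/ACA gene at least 1.5-fold lower was Snora75, at 2.72 on the E4bp4-LKO array and 3.52 on the WT array (-0.80), both below the floor.

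Other box H/ACA genes were higher by less than 1.5-fold. Snora23 had 7.90 on the E4bp4-LKO array and 7.69 on the WT array (0.21). Snora44 had 7.61 on the E4bp4-LKO array and 7.36 on the WT array (0.25). Snora21, from an intron of the ribosomal protein gene Rpl23, had 7.56 on the E4bp4-LKO array and 7.15 on the WT array (0.41). Snora62, from the ribosomal protein gene Rpsa, had 6.65 on the E4bp4-LKO array and 6.19 on the WT array (0.46). Snora74a, which encodes U19 RNA, lay near the floor at 4.23 on the E4bp4-LKO array and 4.05 on the WT array (0.18). Above the floor the only box H/ACA gene with a negative difference was Snora78, at 4.52 on the E4bp4-LKO array and 4.83 on the WT array (-0.31).

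Among box C/D genes Snord16a, a methylation guide in the ribosomal protein gene Rpl4, was furthest from WT, at 7.11 on the E4bp4-LKO array and 6.10 on the WT array (1.01, 2.01-fold). Snord58b, in Rpl17, had 6.97 on the E4bp4-LKO array and 6.01 on the WT array (0.96). Snord13 had 8.81 on the E4bp4-LKO array and 7.94 on the WT array (0.87). Its RNA, U13, guides acetylation of the small subunit RNA by Nat10 and is transcribed from a promoter of its own. Snord104 had 9.10 on the E4bp4-LKO array and 8.25 on the WT array (0.85). The other 2 past 1.5-fold, Snord90 (3.12 on the E4bp4-LKO array, 2.51 on the WT array) and Snord70 (3.87 against 3.26 in WT), lay below the floor on both arrays.

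Snord22, from the non-coding host Snhg1, lay just under the threshold, at 9.53 on the E4bp4-LKO array and 8.98 on the WT array (0.54). Snord49b had 8.93 on the E4bp4-LKO array and 8.43 on the WT array (0.49), and Snord73b had 9.13 on the E4bp4-LKO array and 8.74 on the WT array (0.39). In contrast, Snord99 was at 10.24 on both arrays (0.01), and Snord82 had 8.75 on the E4bp4-LKO array and 8.77 on the WT array (-0.02). Among the 15 box C/D genes in the upper 26 members by mean level, differences ran from -0.02 to 1.01, with 14 positive.

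Some box C/D RNAs are known for more than methylation. Snord118 encodes U8, which is needed to process the large subunit RNAs, and had 4.16 on the E4bp4-LKO array and 4.19 on the WT array (-0.02). Snord47, one of the RNAs of the Gas5 locus, had 7.29 on the E4bp4-LKO array and 7.08 on the WT array (0.21). Snord35a lies in an intron of Rpl13a and belongs to a group of RNAs tied to cell death under lipid overload in cultured cells. It had 7.34 on the E4bp4-LKO array and 7.02 on the WT array (0.31). Its companions Snord32a, Snord33 and Snord34 have no probe set of their own and were not analysed here.

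Negative differences were fewer and smaller. The largest was that of Snord88a, at 3.66 on the E4bp4-LKO array and 4.56 on the WT array (-0.90), with a mean below the floor. Above the floor, Snord73a came first, at 5.52 on the E4bp4-LKO array and 5.91 on the WT array (-0.39). Snord11 (-0.21), Snord53 (-0.19), Snord88c (-0.17), Snord65 (-0.15), Snord83b (-0.09) and Snord37 (-0.04) followed in the same class. None of these reached 1.5-fold. In all, 16 members were lower and 44 higher by less than 1.5-fold, and the middle of the 78 differences, from the 25th to the 75th percentile, ran from 0.03 to 0.51.

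Among the Cajal body genes only Scarna6 passed 1.5-fold, at 7.22 on the E4bp4-LKO array and 6.30 on the WT array (0.92). Scarna8 differed by 0.45 with dim values on both sides of the comparison, at 3.84 on the E4bp4-LKO array and 3.38 on the WT array. Scarna10 had 6.71 on the E4bp4-LKO array and 6.55 on the WT array (0.17), Scarna2 had 6.76 against 6.70 in WT (0.06), and Scarna17 had 8.09 against 8.05 in WT (0.04).

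**Figure D3:**
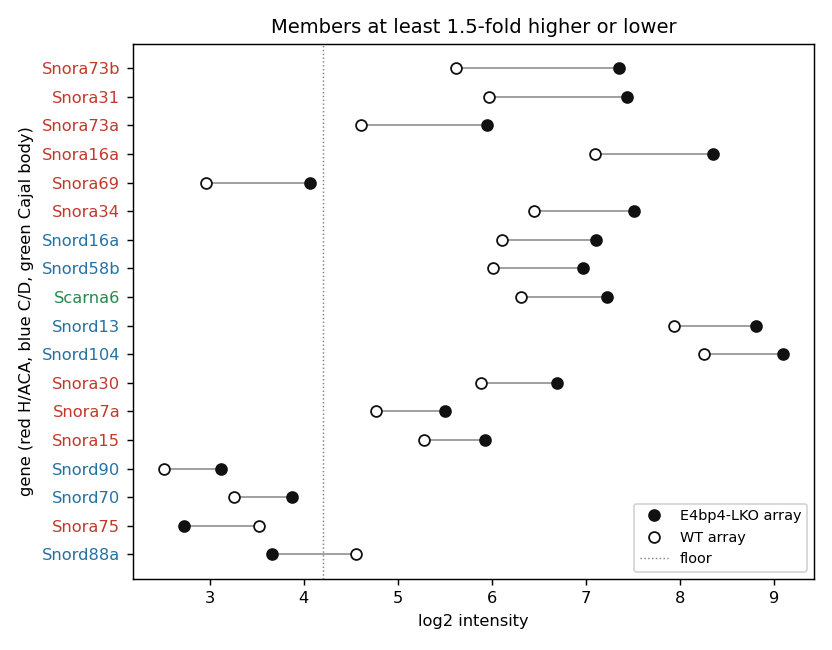
The x axis is the log2 intensity, and each row is 1 of the 18 members at least 1.5-fold higher or lower. Filled circles are the E4bp4-LKO array, open circles the WT array, and the dotted line is the floor at 4.20. In the upper 16 rows the E4bp4-LKO array is to the right, and in the lower 2 rows, Snora75 and Snord88a, it is to the left.

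Only 3 members had several probe sets. The 2 probe sets of Scarna17 differed by 0.05 and 0.02. Those of Snora19 held the same values, so they are counted as 1 measurement (4.14 on the E4bp4-LKO array, 3.79 on the WT array). Those of Snora33 had unlike levels, 10.39 on the E4bp4-LKO array and 10.41 on the WT array for one, and 3.68 against 3.51 in WT for the other. Probe sets that name a small nucleolar RNA gene together with another gene, often the host, are not members. Their 46 probe sets carry 29 different sets of symbols, whose median difference was 0.08. Of the 29, 18 were positive, 6 reached 1.5-fold above WT and 2 reached 1.5-fold below it. Over all genes these shares were 47.6%, 1.33% and 1.65%.

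To place the members by host, the gene of the RefSeq annotation that spans each of them was looked up, without regard to strand. A single spanning gene was found for 67 of the 78, several for 7 and none for 4. The host had its own values on the array for 57 members, which share 43 hosts. The 43 hosts had a median difference of 0.08, and 31 were positive. At least 1.5-fold higher were 2 of the hosts and none was lower by as much. Of the 57 members, 14 were at least 1.5-fold higher, and for none of the 14 was the host so too. With 2 of 43 hosts and 1.33% of all genes at that size, this 0 lies near the background and says nothing about members against hosts. The member's difference exceeded the host's for 32 of the 57. Across the 57 pairs the differences correlated at r = 0.29 (rho = 0.28), and members of 1 host share its value.

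Hosts of each kind were represented among the higher members. For the counts below, 1.33% of all genes were at least 1.5-fold higher. The 18 members in ribosomal protein genes had a median difference of 0.40, with 4 at least 1.5-fold higher, and the 11 measured hosts of this kind had a median of 0.25, between -0.11 and 0.52. The 33 members in other protein-coding genes had a median of 0.32, with 7 at least 1.5-fold higher, against a median of 0.02 for their 25 measured hosts. The 16 members in non-coding genes had a median of 0.21, with 4 at least 1.5-fold higher, and their 7 measured hosts had a median of 0.28. Median differences of box H/ACA members exceeded those of box C/D members in each kind of host. They were 0.46 (6 members) against 0.26 (12) in ribosomal protein genes and 0.46 (12) against 0.19 (18) in other protein-coding genes. In non-coding genes they were 0.75 (6) against 0.01 (9). None of the 6 box H/ACA members in non-coding genes lay near that 0.75. Snora73a, Snora73b and Snora16a were past 2-fold, while Snora44, Snora74a and Snora61 differed by 0.25, 0.18 and 0.13. The Snora73 pair may also share probes.

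Members of the same host often differed from each other. For 11 hosts with several members, 25 in all, the range of differences within a host had a median of 0.73 and ran from 0.18 to 1.24. Snhg12 spans 4 members, of which Snora16a was 2.38-fold higher while Snora44, Snora61 and Snord99 differed by 0.25, 0.13 and 0.01. Snhg12 itself had 4.43 on the E4bp4-LKO array and 4.16 on the WT array (0.28). Snhg3, which spans Snora73a and Snora73b, had 5.92 on the E4bp4-LKO array and 5.47 on the WT array (0.45). Kansl2, a subunit gene of a histone acetylation complex, spans Snora34 (1.06) and Snora2b (0.48) and differed by 0.52. Within 5 of the 11 hosts the members had opposite signs. In Gnl3 (Snord19 and Snord69), Nop58 (Snord70) and Rpl3 (Snord43) this rests on members below the floor. Other hosts also span members below the floor, and ranges between members of different hosts were not computed for comparison. Snord73b and Snord73a of Rps3a1 differed by 0.39 and -0.39, and Snord70 and Snord11 of Nop58 by 0.61 and -0.21. Tpt1, which spans Snora31, had 6.92 on the E4bp4-LKO array and 6.75 on the WT array (0.17).

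**Figure D4:**
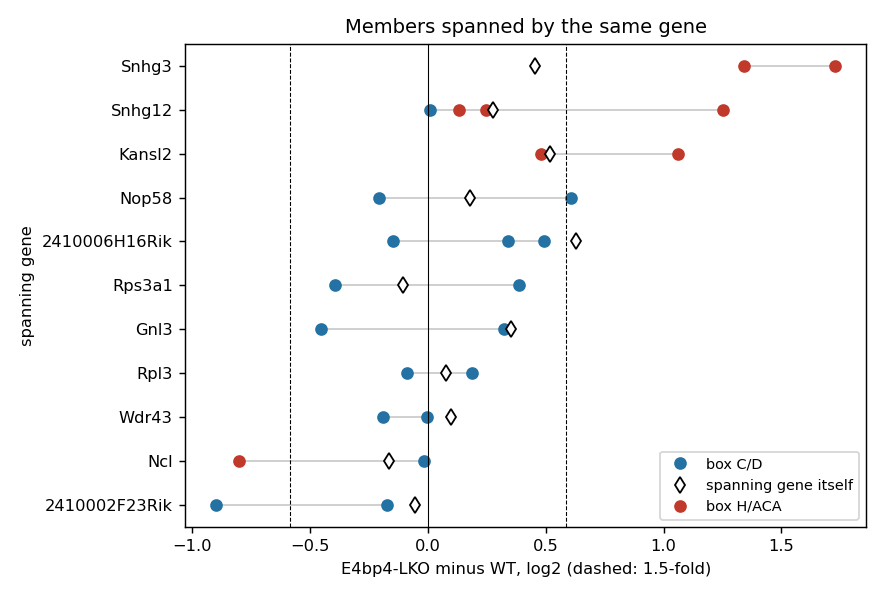
Each row is 1 of the 11 genes that span several members, and the x axis is the log2 difference, E4bp4-LKO minus WT. Filled circles are members coloured by class and open diamonds are the spanning gene itself. The members of Snhg12 run from Snord99 at 0.01 to Snora16a, past the dashed line, with the diamond at 0.28, and both members of Snhg3 lie to the right of its diamond.

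The start regions of 4 non-coding hosts are shown because they span 10 of the members, among them the Snora73 pair, Snora16a and Snord104. Mammalian genes of the translation machinery and many small nucleolar RNA hosts begin their transcripts with a run of C and T. Each line gives 100 bases, 70 before and 30 from the annotated start, from RefSeq on GRCm38.p6, 5′ to 3′ on the strand of the gene. Capitals mark the longest run of C and T that touches the 5 bases on either side of the start.
Snhg3 (chr4:132353657-132353756, minus strand): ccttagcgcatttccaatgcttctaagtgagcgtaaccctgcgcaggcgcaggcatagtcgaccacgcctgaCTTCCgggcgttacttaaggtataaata
Snhg12 (chr4:132308608-132308707, plus strand): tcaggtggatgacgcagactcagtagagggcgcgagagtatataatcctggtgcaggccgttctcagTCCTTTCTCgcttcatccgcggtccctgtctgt
Gm36220, which spans Snord104 (chr11:106500845-106500944, plus strand): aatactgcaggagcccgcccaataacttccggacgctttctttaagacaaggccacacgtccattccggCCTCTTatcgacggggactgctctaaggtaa
2410006H16Rik, which spans Snord49a, Snord49b and Snord65 (chr11:62602807-62602906, plus strand): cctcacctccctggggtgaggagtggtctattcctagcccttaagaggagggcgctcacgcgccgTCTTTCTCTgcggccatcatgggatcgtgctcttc

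The run measured 5 bases at Snhg3, 9 at Snhg12, 6 at Gm36220 and 9 at 2410006H16Rik. Promoter windows, 250 bases before to 50 after a start, were at hand for 50 of the 67 genes that span a member, 54 windows in all. A run of at least 6 bases was found in 21 of the 54 (38.9%), against 21.0% of all 32851 windows. E4BP4 and the PAR bZIP factors bind the D-box, whose core reads TTACGTAA or TTATGTAA. Neither was found on either strand in the 54 windows, while 1.06% of all windows hold one of them. The looser TTANGTAA was found in 2 of the 54 windows on either strand, those of Snhg3 and Zbed3, against 2.32% of all windows. In the Snhg3 line it stands as TTACTTAA from base 13, counting the start as base 1. Read on the other strand it has A at the open position of the motif, where the D-box has C or T. These matches describe letters in a window and are not evidence of binding.

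Of the 18 non-coding hosts measured on the list of Snhg genes and like hosts, 13 were positive, with a median of 0.17. Among the 271 lncRNA genes above the floor, 56.5% were positive, 4.80% reached 1.5-fold above WT and 0.369% reached 1.5-fold below it, with a median of 0.06. Snhg6 (7.51 on the E4bp4-LKO array, 6.74 on the WT array) and Snhg4 (5.50 against 4.77 in WT) were at least 1.5-fold higher, and none was lower by as much. Snhg1 had 5.33 on the E4bp4-LKO array and 5.09 on the WT array (0.23). Other short RNAs differed by kind. Most of a list of 9 were higher on the E4bp4-LKO array, as were 60 of the 78 members (median 0.25), while microRNA genes were near balance. Of these 9 genes for spliceosomal, Y, 7SK, telomerase and RNase P RNAs and for U3, 8 were positive, with a median of 0.26. Rnu5g was negative (-0.17). The 9 are set apart from the members by symbol alone, so RNAs of the same classes, such as U3, can be among them. The 472 microRNA genes, 381 of them below the floor, had 243 positive differences. Rny1, a Y RNA gene, had 4.96 on the E4bp4-LKO array and 3.89 on the WT array (1.07), and it alone of the 9 passed 1.5-fold. Rpph1, the RNA of RNase P, had 9.15 on the E4bp4-LKO array and 8.71 on the WT array (0.44). Rn7sk had 12.07 on the E4bp4-LKO array and 11.96 on the WT array (0.10). Rnu3a, a U3 gene, had 4.20 on the E4bp4-LKO array and 3.68 on the WT array (0.52).

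Genes for the proteins that act with small nucleolar RNAs differed little. No gene of the following 6 lists was 1.5-fold higher or lower. Over all genes 1.33% were higher and 1.65% lower by as much, so this 0 lies near the background for such short lists. Among the box C/D core proteins, Nop58 had 7.30 on the E4bp4-LKO array and 7.12 on the WT array (0.18), Snu13 differed by 0.21 and Nop56 by 0.05. Fbl was not analysed here. Among the box H/ACA core proteins, Dkc1 had 6.44 on the E4bp4-LKO array and 6.37 on the WT array (0.07), Nop10 differed by 0.26, Nhp2 by 0.20 and Gar1 by -0.07. The 13 assembly and Cajal body proteins had a median of 0.01, the 15 factors that release or trim the RNAs from introns 0.05, the 25 factors of ribosomal RNA processing -0.02 and the 12 RNA polymerase I factors 0.008. Over these last 4 lists the numbers of positive genes were 7, 8, 10 and 7, against 47.6% positive among all genes.

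Box H/ACA RNAs are the longer class, with a median annotated length of 118.5 bases, against 68 bases for box C/D. Annotated lengths were used as given. Some box H/ACA entries, such as Snora19 (56 bases), Snora20 (61) and Snora61 (62), lie far below that median. Whether they cover the whole RNA was not checked. The difference correlated with length at r = 0.36 (rho = 0.29) over all 78 members, which includes the difference between the classes. Within a class it correlated at r = 0.27 (rho = 0.17) for the 26 box H/ACA genes and at r = 0.07 (rho = 0.06) for the 47 box C/D genes. The part of length in the difference between the classes was not tested.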

How the data were processed

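The table deposited by the authors gives a log2 intensity for every probe set on each array. Per the submitters' processing notes, it was made with RMA in R 3.4.0. RMA corrects background, equalises the arrays by quantiles and summarises probes, and it compresses differences of dim genes. Labelled cDNA was made from 400 ng of RNA, per the labels' protocols. Values ran from 1.18 to 12.82 on the E4bp4-LKO array and from 1.25 to 12.78 on the WT array. The genome build of the array's annotation is not given in the sources used here.

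Of 41345 probe sets, 23521 had 1 gene symbol, 1814 several and 16010 none. Only the first were used, and averaging per gene gave 22180 genes. All 78 members were matched by Entrez identifier to RefSeq (GRCm38.p6), which supplied biotypes, lengths and spanning genes. Protein-coding genes of like level were taken from 20 bins of mean level. No test was run, since there is 1 array per genotype, and the number of arrays limits the precision. The functions were tested on simulated data with known shifts. Python 3.11.15, pandas 2.3.3 and matplotlib 3.10.9 were used. Named are, among members above the floor, the 8 furthest above and the 8 furthest below WT, the 5 with the highest level in each class, well-known members, those with several probe sets and, from the other lists, genes past 1.5-fold and core proteins. Remaining members past 1.5-fold or spanned by one gene were named after their values were seen. The members and lists were chosen with earlier results of these data known.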

Additional observations from a re-analysis of the deposited data

How the results depend on the processing

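Of 66 values recomputed under the alternatives, 57 kept within 0.1 (medians) or 1.5 times (counts and spreads) of the reported ones. None of the 24 signed medians among them changed sign. With only members at or above the 75th percentile of level, the median was 0.36 for all members and 0.32 for box C/D genes. Among these fewer members 10 were at least 1.5-fold higher and 0 lower, against 1.33% and 1.65% of all genes of any level. With members at or above the median level, 0 were lower. At a 2-fold threshold 7 were higher and 0 lower, and at the lower of the thresholds tried 35 were higher and 5 lower. Counting 1 member per spanning gene (64 genes), which was added with the values in view, gave values within those limits. Removing the intensity trend moved the 35 named genes by 0.009 to 0.05 and turned the sign of 2 that lie next to 0, Snord118 (-0.02 as reported, 0.0036 with the trend removed) and Snord82 (-0.02 as reported, 0.0024 with the trend removed). Leaving out the Snord113 to Snord116 families removed no member, so it is not among the 66. No paired analysis was possible because each genotype has 1 array. Signal over background was judged from the level alone, so differences of members below the floor are the least certain.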
